A study of Homo sapiens with 4 samples.

Results

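To describe the keratin mRNA of papillary thyroid cancer cells with and without added innate immunity activator (INAVA), 8 keratin genes were read from the deposited expression table by symbol. They were KRT8, KRT18, KRT7 and KRT19 of simple epithelia, KRT10 and KRT80 of stratified epithelia, and the hair keratins KRT81 and KRT34. Of the 8 genes, 7 were listed among the 13165 genes of the table. KRT19 was not listed, which gives no information on its level.

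RNA was sequenced from TPC1, an established line of human papillary thyroid cancer cells. TPC1-Vector cells carried the empty vector, and TPC1-INAVA cells, labelled TPC1-C1orf106 after the older name of the gene, carried a vector expressing INAVA. Both lines were kept in DMEM with 10% FBS and selected with puromycin, and whether the sequenced lines were pools or clones was not stated. There were 2 libraries in each group, 4 in all, but the table gives 1 value per gene and group, in FPKM (fragments counted for a gene, divided by transcript length and by the total mapped). The spread between libraries is therefore unknown, the depth is unknown, and no difference below has a test or a replicate check.

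INAVA itself was listed at 7.96 FPKM in TPC1-Vector cells and 123 FPKM in TPC1-INAVA cells. Of 7 thyroid follicular markers, 2 were listed, FOXE1 and PAX8, with a summed level of 65.3 FPKM in TPC1-Vector cells and 61.5 FPKM in TPC1-INAVA cells. TG, TSHR, NKX2-1 and SLC5A5 were among those not listed. Of 6 simple epithelial markers, 3 were listed, all of them keratins, while EPCAM and CDH1 were not. Among fibroblast markers 3 of 6 were listed, summing to 3.56 and 2.19 FPKM, and none of 7 stratified squamous markers was listed. Of 3 blood markers, CD14 was listed, at 0.295 and 0.236 FPKM. As for KRT19, the level of a marker that was not listed is unknown, so it cannot be called absent.

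Keratins are the intermediate filament proteins of epithelial cells. Each filament is built from pairs of an acidic type I chain and a basic type II chain, so that both types are needed for assembly. KRT8 (type II) and KRT18 (type I) are the main pair of simple epithelia. KRT7 (type II) and KRT19 (type I) accompany them in ducts and glands. KRT19 staining is used in the diagnosis of papillary thyroid cancer. KRT10 (type I) is a keratin of the differentiating epidermis, KRT80 (type II) is found in several stratified epithelia, and KRT81 (type II) and KRT34 (type I) belong to hair.

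The coding sequences of the family are alike to differing degrees. Close likeness matters for how fragments are assigned, and the sequence held in common differed between members, as given below. As an illustration, a window of 30 coding bases was read from GENCODE release 29 (GRCh38). It lies near the end of the central rod, a highly conserved stretch of keratins. Capitals mark the 15 positions that were identical in all 7 genes shown, which include KRT15 and KRT86 from the other keratins of the table. The window was placed by a fixed amino acid pattern, so many of the capitals were set by the search and do not measure likeness. The pattern was not found in KRT80, and KRT8 and KRT18 were not searched.
KRT7 (type II): ATcgccACcTACcGcaagCTgCTgGAggGc
KRT81 (type II): ATcgccACcTACaGgcgcCTgCTgGAggGc
KRT86 (type II): ATcgccACcTACaGgcgcCTgCTgGAggGc
KRT19 (type I): ATtgccACcTACcGcagcCTgCTcGAggGa
KRT10 (type I): ATtcaaACcTACcGcagcCTgCTaGAagGa
KRT34 (type I): ATcaacACgTACcGgagcCTcCTgGAgaGt
KRT15 (type I): ATcgctACtTACcGcagcCTgCTcGAggGc

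KRT81 and KRT86 did not differ at any of the 30 positions, KRT7 and KRT81 differed at 5, KRT19 and KRT15 at 4, and KRT7 and KRT19 at 5. Over the whole coding sequence, KRT81 and KRT86 were identical at 93.6% of 1457 aligned bases. The identity was 72.7% for KRT7 and KRT8, 62.7% for KRT18 and KRT19, and 57.0% for KRT8 and KRT18. The filament partners KRT8 and KRT18 were thus less alike than these same-type pairs, and the hair keratins KRT81 and KRT86 were the closest pair among the genes compared.

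The pair KRT8 and KRT18 shares sequence for another reason. The genes lie side by side on chromosome 12 on opposite strands, and the table gives both the same position, 52897187 to 52952901 (hg38, counted from 1). GENCODE places KRT8 on the reverse strand, from 52897187 to 52949954, and KRT18 on the forward strand, from 52948871 to 52952901. Of 17 annotated KRT8 transcripts, 8 have exons on the opposite strand of KRT18 exons, with 525 exonic bases in common. These were 7.63% of the exonic bases of KRT8 and 16.3% of those of KRT18. Of the 1293 coding bases of KRT18, 375 occur in KRT8 transcripts on the opposite strand. One such stretch, coding bases 282 to 311 of KRT18, is given with the same bases as 7 KRT8 transcripts carry them. The line marked KRT8 antisense is the sequence within those KRT8 transcripts, which is antisense to KRT18.
KRT18: cctggacagagtgaggagcctggagaccga
KRT8 antisense: tcggtctccaggctcctcactctgtccagg

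Strand was not stated to be used in the counting. Without it, fragments from these bases cannot be told apart between KRT8 and KRT18.

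**Figure D1:**
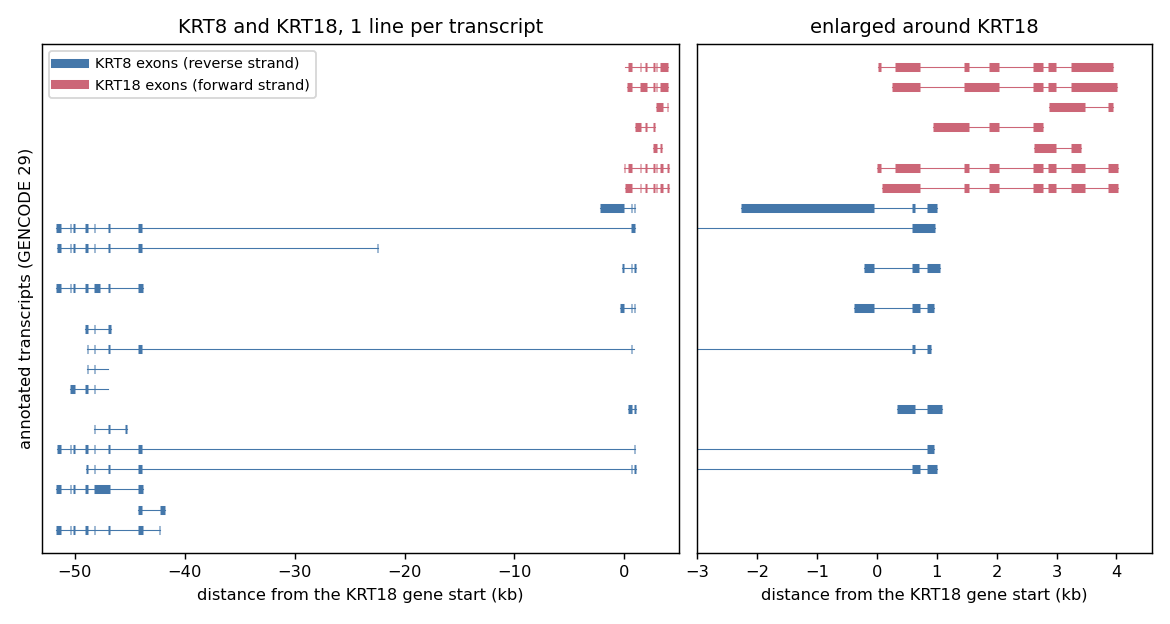
Annotated transcripts of KRT8 (blue, reverse strand) and KRT18 (red, forward strand) in GENCODE release 29, drawn to scale by distance from the KRT18 gene start in kb, with thick bars for exons and the region around KRT18 enlarged on the right. Exons of 8 KRT8 transcripts lie over exons of KRT18.

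The 7 listed genes covered a wide range of levels. In TPC1-Vector the order was KRT81, KRT18, KRT80, KRT8, KRT10, KRT7 and KRT34, from 290 to 0.106 FPKM. In TPC1-INAVA the order was the same, from 334 to 0.387 FPKM. KRT81 was above 98.4% of the 12305 genes that reached 0.5 FPKM on average, by the TPC1-Vector values, and KRT7 was above 15.3% of them in each group. With 1 value per group, it cannot be said which neighbours in this order differ beyond their spread.

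Differences between the groups were computed as differences of log2(FPKM + 0.5), TPC1-INAVA minus TPC1-Vector, for genes that reached a mean of 0.5 FPKM. The median over all 12305 genes was 0.0033. Of the members, 6 passed this filter, and KRT34 did not. A difference of at least 1.5-fold was set apart. It was reached upwards by 1 of 6 members (KRT18), against 2.24% of all genes, and downwards by 1 of 6 (KRT8), against 1.45% of all genes. The median of the 6 members was 0.07.

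**Figure D2:**
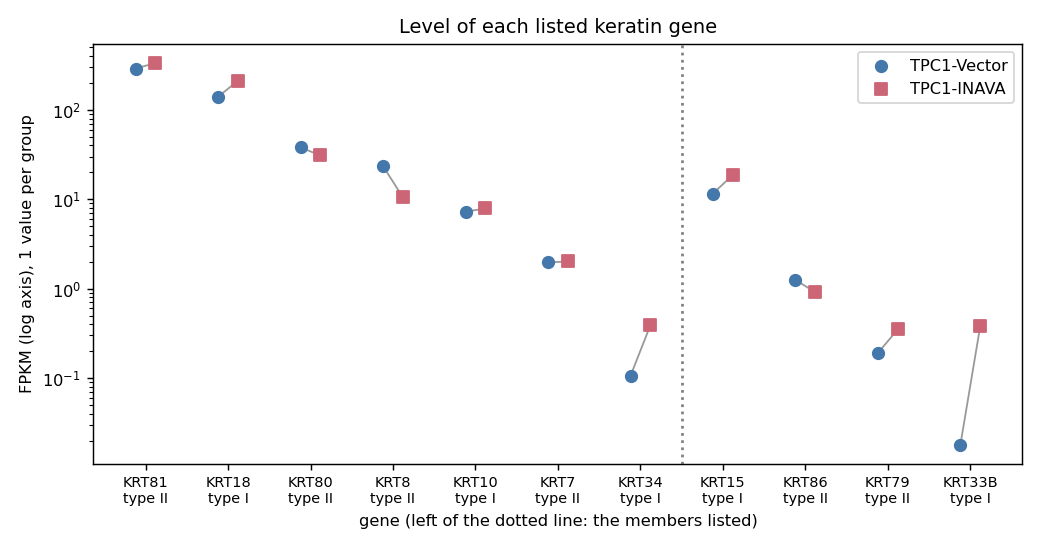
FPKM (log axis) of the 7 listed members, left of the dotted line, and the 4 other keratin genes of the table, with blue circles for TPC1-Vector and red squares for TPC1-INAVA, 1 value per gene and group. KRT8 and KRT18 moved in opposite directions, and KRT81 and KRT18 were the highest in both groups.

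KRT18, the type I chain of the simple epithelial pair, was at 140 FPKM in TPC1-Vector cells and 212 FPKM in TPC1-INAVA cells, a ratio of 1.51. Its log2 difference of 0.59 lay just past the 1.5-fold line. The increase amounted to 71.4 FPKM. As large a difference in this direction was seen in 271 genes, or 2.20% of all genes tested. Quantile normalization of the columns gave 0.52, which is short of 1.5-fold.

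KRT8, the type II partner of KRT18, was at 23.4 FPKM in TPC1-Vector cells and 10.5 FPKM in TPC1-INAVA cells. It was thus 2.22-fold lower in TPC1-INAVA, with a log2 difference of -1.12. As large a difference in this direction was seen in 19 genes, or 0.154% of all genes tested. Among genes of at least 10 FPKM on average, to which KRT8 and KRT18 belong, 1.09% were at least 1.5-fold higher and 0.908% at least 1.5-fold lower.

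The type I chain of the pair was thus higher and the type II chain lower. KRT18 was 5.99-fold above KRT8 in TPC1-Vector and 20.1-fold above it in TPC1-INAVA. The sum of both was 164 FPKM in TPC1-Vector cells and 222 FPKM in TPC1-INAVA cells, a ratio of 1.36. In FPKM the groups differed by 12.9 for KRT8 and 71.4 for KRT18. These values are divided by transcript length, so they cannot be set against each other as counts of fragments. KRT18 also shares sequence with copies of itself elsewhere in the genome. Of the 50-base words in its transcripts, 24.5% occur in transcripts of other genes, KRT8 and 43 annotated KRT18 pseudogenes among them. For KRT8 the share was 16.1%, over 258 other genes, of which 33 were annotated KRT8 pseudogenes and 117 were listed in the table. Words found in listed genes made up 7.18% of the KRT8 words, and KRT18 alone held 5.94%. No keratin pseudogene was listed in the table. The part of shared fragments in the values of KRT8 and KRT18 was not tested.

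Other genes of the table also share a position. There were 824 positions held by exactly 2 genes past the filter, and the median log2 gap between the genes of such a pair was 0.16. KRT8 and KRT18 were apart by 1.71, the fourth largest gap. They were the only pair of the 824 in which 1 gene was at least 1.5-fold lower and the other at least 1.5-fold higher, or 0.121% of the pairs. Of all genes that share a position, 3.36% were at least 1.5-fold different in either direction, against 3.78% of genes with a position of their own.

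KRT7, a type II keratin of glandular epithelia, was low in these cells. Its level was 1.97 FPKM in TPC1-Vector cells and 2.01 FPKM in TPC1-INAVA cells, a log2 difference of 0.03. It thus had nearly the same level in the groups. Of its 50-base words, 5.70% occur in other genes, most of them in the antisense gene KRT7-AS, which is not listed in the table. KRT7 is given at 52233170 to 52248925 on chromosome 12.

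KRT81, a type II hair keratin, had the highest level of the keratin genes in both groups. It was at 290 FPKM in TPC1-Vector cells and 334 FPKM in TPC1-INAVA cells, a ratio of 1.15 and a log2 difference of 0.20. It ranked 200 and 175 among all genes tested. The table places it on chromosome 12, from 52285913 to 52291515. KRT86, its neighbour and near copy, was at 1.253 and 0.912 FPKM. Of the 50-base words of KRT81, 37.6% also occur in KRT86, so the split of fragments between them is uncertain. The level of KRT81 was far above that of KRT86 in each group.

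KRT80, a type II keratin linked to cell junctions and differentiation, was at 38.0 FPKM in TPC1-Vector cells and 30.9 FPKM in TPC1-INAVA cells. It was 1.23-fold lower in TPC1-INAVA, with a log2 difference of -0.29, and 8.17% of all genes had as large a difference in this direction. KRT80 (chromosome 12, 52168996 to 52192000) shares 0.364% of its 50-base words with other genes. KRT80 and KRT8 were the type II members with the lower value in TPC1-INAVA.

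KRT10, the type I keratin of the upper epidermis, was at 7.26 FPKM in TPC1-Vector cells and 7.89 FPKM in TPC1-INAVA cells, with a log2 difference of 0.11. The table gives it the same position as TMEM99 (chromosome 17, 40818117 to 40836274), a gene on the opposite strand that was at 6.05 and 6.21 FPKM. The exons of KRT10 and TMEM99 have 56 bases in common, 2.61% of the exonic bases of KRT10. Neither gene of this overlapping pair was near the 1.5-fold line.

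KRT34, a type I hair keratin, was at 0.106 FPKM in TPC1-Vector cells and 0.387 FPKM in TPC1-INAVA cells. It fell under the filter, and its log2 difference depended on the amount added, with 1.24 when 0.1 was added, 0.55 with 0.5 and 0.33 with 1. The table places it on an alternate sequence of chromosome 17, from 57880 to 62596, whereas GENCODE places it on the chromosome itself, from 41377650 to 41382403. Of its 50-base words, 11.4% occur in the hair keratins next to it. KRT33B, the neighbour on the same alternate sequence, was at 0.0180 and 0.380 FPKM. Both hair type I genes were thus under 0.5 FPKM in each group, with the higher value in TPC1-INAVA.

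**Figure D3:**
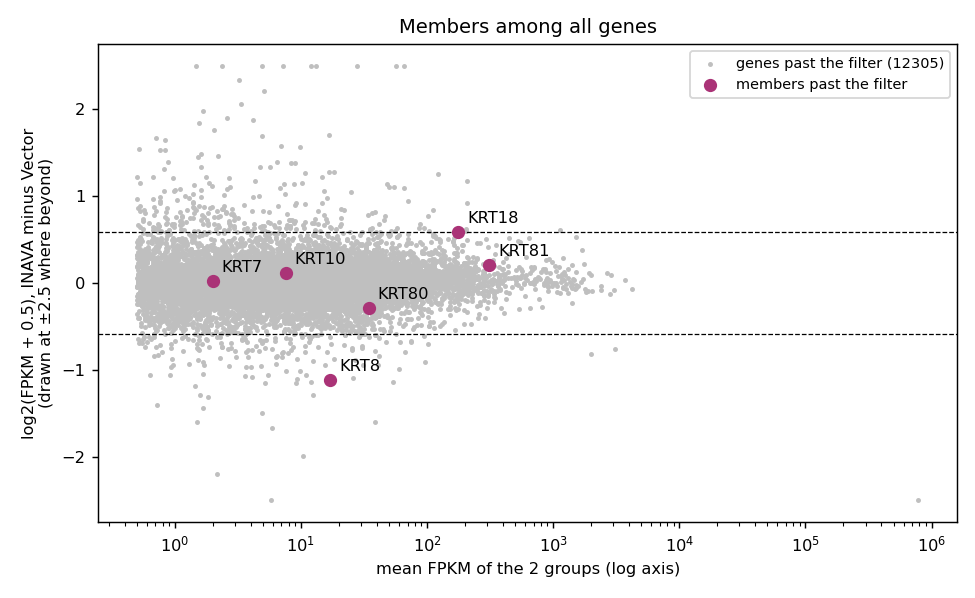
Log2 difference of each gene (TPC1-INAVA minus TPC1-Vector, 0.5 FPKM added) against its mean FPKM (log axis) for 12305 genes, in grey, and the 6 members past the filter, in purple, with dashed lines at 1.5-fold. KRT8 lies below the lower line at -1.12, KRT18 at the upper line at 0.59, and the other 4 members lie between the lines.

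Filaments need both types of chain, so the summed mRNA levels of the types were set side by side. Keratin protein was not measured, so these sums do not give the make-up of filaments. The type II members KRT7, KRT8, KRT80 and KRT81 summed to 353 FPKM in TPC1-Vector cells and 377 FPKM in TPC1-INAVA cells, a ratio of 1.07. The type I members KRT10, KRT18 and KRT34 summed to 148 and 220 FPKM, a ratio of 1.49. The ratio of type II to type I was 2.39 in TPC1-Vector and 1.72 in TPC1-INAVA, a log2 change of -0.48. Without KRT81 the ratio was 0.429 and 0.198, and type I exceeded type II. Without KRT8 and KRT18 it was 44.8 and 44.3. The change was thus not seen once both were left out. Leaving out KRT8 gave type II sums of 330 and 367 FPKM, a ratio of 1.11, against 1.07 with it. Leaving out KRT18 gave type I sums of only 7.37 and 8.28 FPKM, a ratio of 1.12, against 1.49 with it. The change in the ratio of the types thus lay mostly in the KRT18 values. The type II sum was higher in TPC1-INAVA although KRT8 was lower, and KRT18 made up 140 and 212 FPKM of the type I sums. As KRT19 was not listed, the type I sums lack it.

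Shares of the keratin mRNA were computed over all 11 keratin genes of the table. KRT81 held 56.4% of the summed FPKM in TPC1-Vector and 54.1% in TPC1-INAVA, and KRT18 held 27.3% and 34.3%. The share of KRT8 was 4.55% in TPC1-Vector and 1.70% in TPC1-INAVA, and that of KRT80 was 7.38% and 5.01%. The 11 genes summed to 514 FPKM in TPC1-Vector cells and 618 FPKM in TPC1-INAVA cells. Vimentin (VIM), the intermediate filament protein of mesenchymal cells, was at 1407 and 1380 FPKM. All listed keratins together thus came to 36.5% of the vimentin level in TPC1-Vector and 44.8% in TPC1-INAVA.

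**Figure D4:**
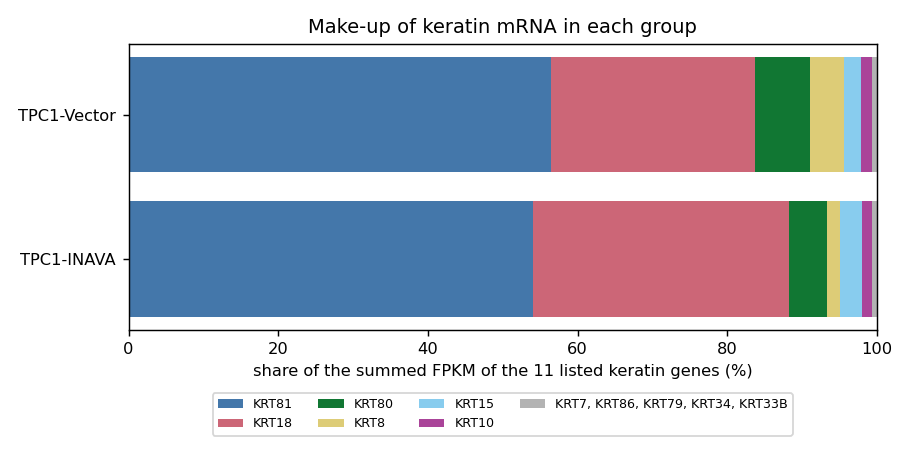
Share of each gene in the summed FPKM of the 11 listed keratin genes (%), 1 bar per group. KRT81 makes up 56.4% and 54.1% of the bars, KRT18 widens from 27.3% to 34.3%, and KRT8 narrows from 4.55% to 1.70%.

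Most members lie in the keratin clusters of chromosomes 12 and 17, and their neighbours were compared with them. Within 1 Mb of KRT18, 29 other genes passed the filter, KRT8 among them, with a median log2 difference of -0.13, and 12 of the 29 were above 0. KRT18 exceeded this median by 0.72. KRT8 differed from the median of its own 29 neighbours by -0.99. For KRT81 the difference from its 20 neighbours was 0.34, for KRT80 -0.18, for KRT7 0.16 and for KRT10, with 22 neighbours, 0.16. KRT8 and KRT18 thus stood apart from the genes around them in opposite directions.

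The table held 4 other keratin genes, KRT15, KRT86, KRT79 and KRT33B. KRT15, a type I keratin of basal epithelial cells and the neighbour of KRT19 on chromosome 17, was at 11.6 FPKM in TPC1-Vector cells and 18.7 FPKM in TPC1-INAVA cells. Its ratio was 1.62 and its log2 difference 0.67, past the 1.5-fold line, which 2.24% of all genes past the filter reached upwards. Of the 4 genes, 2 passed the filter, and KRT86 had a log2 difference of -0.31. KRT15 and KRT18, the type I keratins above 10 FPKM, were both higher in TPC1-INAVA. KRT79 was at 0.191 and 0.349 FPKM.

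Of 16 other intermediate filament genes 7 were listed and passed the filter, with a median log2 difference of -0.03. None of the 7 reached 1.5-fold, which 2.24% of all genes reached upwards and 1.45% downwards, so a count of 0 in so few genes does not set the list apart. Synemin (SYNM), which joins vimentin and desmin filaments, was at 4.77 FPKM in TPC1-Vector cells and 3.57 FPKM in TPC1-INAVA cells, a log2 difference of -0.37. BFSP1, a filament protein of the eye lens, had -0.22. LMNA, which forms the nuclear lamina, had 0.05, and syncoilin (SYNC) had 0.21, the highest of the list. Vimentin had -0.03.

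Keratin filaments are anchored at desmosomes and hemidesmosomes by linker proteins. Of 23 such genes 14 were listed and passed the filter, 10 were above 0 and 4 below, none reached 1.5-fold, and the median was 0.11. Of all genes, 2.24% reached 1.5-fold upwards and 1.45% downwards, so finding none among 14 does not set the list apart. Plakoglobin (JUP), which links desmosomal cadherins to filaments, was at 9.63 FPKM in TPC1-Vector cells and 7.34 FPKM in TPC1-INAVA cells, a log2 difference of -0.37. Plakophilin 2 (PKP2) had -0.22. The desmosomal cadherin DSC2 was at 0.857 and 1.39 FPKM, a log2 difference of 0.48, and passed 1.5-fold when 0.1 rather than 0.5 FPKM was added. COL17A1, a hemidesmosomal collagen, had 0.34. Desmoplakin (DSP) and plectin (PLEC), the main linkers of keratin filaments, were not listed.

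The last list held genes that bind, cut or control keratins. Of 30 genes 25 were listed and 24 passed the filter, 13 were above 0 and 11 below, none reached 1.5-fold, and the median was 0.0046. With 2.24% of all genes past 1.5-fold upwards and 1.45% downwards, finding none among 24 does not set this list apart either. CASP6, a protease that acts in apoptosis, when type I keratins are cleaved, was at 19.3 and 16.0 FPKM, a log2 difference of -0.26. The transcription factors JUN and ETS2 had 0.34 and 0.36, with JUN at 52.5 FPKM in TPC1-Vector cells and 66.4 FPKM in TPC1-INAVA cells. FOS, the AP-1 partner of JUN, had -0.07, and SP1, a general activator of transcription, had -0.25.

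**Figure D5:**
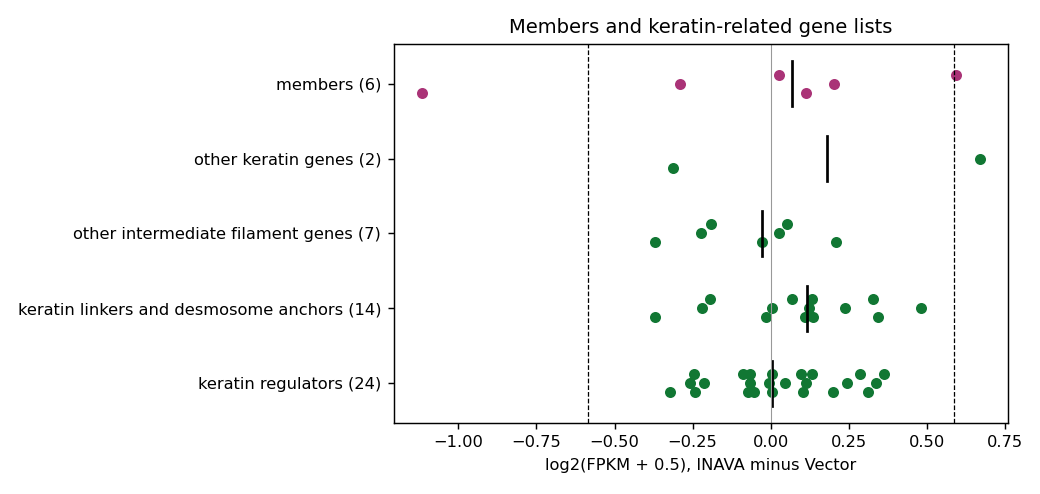
Log2 difference (TPC1-INAVA minus TPC1-Vector, 0.5 FPKM added) of each gene past the filter in the members and 4 related lists, with the number of genes in brackets, a black bar at each median and dashed lines at 1.5-fold. KRT8, KRT18 and KRT15 are the genes on or past the dashed lines.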

How the data were processed

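The deposited table gives FPKM values, 1 per gene and group, made by the authors with Cufflinks 2.1.1 and Cuffdiff on hg38, per the labels. The aligner and annotation are not given in the sources used here, and the labels and the methods name different library kits. Columns of the authors' log2 ratio, p-value and q-value hold their own comparison and were not used. Column names were matched to the groups by the older gene name. Position starts, counted from 0 in the table, were raised by 1.

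Differences were computed as log2(FPKM + 0.5), which understates the change of weak genes, for genes that reached a mean of 0.5 FPKM, with 1.5-fold set apart. The table has 1 value per group, so limma, planned for values of each library, was not run. Fold counts and scalings were tested on simulated data. Exons, coding sequences and 50-base words, on either strand, came from GENCODE release 29, and a word was shared when another gene's transcript held it exactly. Genes named are the members, other keratins at 1 FPKM or more, overlapping genes, and the 2 highest and 2 lowest differences of each list. A few items that this rule covers are not reported here. KRT79, KRT33B, vimentin, FOS, SP1 and the unlisted linkers were named after their values were seen. The members and lists were chosen with earlier results of these data known. The alternatives were other pseudocounts, filters and folds, median-of-ratios scaling and quantile normalization. For single members the difference from the median of genes within 1 Mb was added. Python 3.11.15, numpy 2.4.6, pandas 2.3.3, matplotlib 3.10.9 and biopython 1.88 were used.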

Additional observations from a re-analysis of the deposited data

How the results depend on the processing

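No paired analysis was possible because the table has 1 value per group, and for the same reason a replicate block and leaving out each library were not run. KRT8 and KRT18 were past 1.5-fold in every alternative but quantile normalization, where 1 member, KRT8, was past it; that scaling itself lowered KRT18. Over the pseudocounts and scalings, KRT8 ranged from -1.15 to -1.08 and KRT18 from 0.52 to 0.59. Taken from the median of genes within 1 Mb, they were at -0.99 and 0.72. At a lower threshold, a log2 difference of 0.32 that 14.4% of all genes pass, 1 intermediate filament gene, 4 linkers and 3 regulators were set apart, and with 0.1 FPKM added 1 linker was. Without the filter 2 other keratins were past 1.5-fold, since weak genes then count. They were KRT15 and KRT33B, the latter at 0.0180 and 0.380 FPKM. The share of all genes past 1.5-fold without the filter was not computed. The log2 change of the type II to type I ratio, -0.48, was -1.75 for KRT8 and KRT18 alone, and -1.12 without KRT81 and -0.015 without KRT8 and KRT18, both chosen after seeing the data. It depends on which genes are summed. KRT81, KRT80 and KRT10 kept their direction in all 5 alternatives run, the difference from neighbours among them. KRT7 was at 0 with quantile normalization. As the depth is unknown, no counting error can be given for KRT34 and other weak genes.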

Other observations

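The table also held genes for keratin-associated proteins, the matrix proteins that embed hair keratins, which were named after their values were seen. KRTAP2-3 was at 0.731 FPKM in TPC1-Vector cells and 5.71 FPKM in TPC1-INAVA cells, a ratio of 7.82 and a log2 difference of 2.34. KRTAP2-1 was at 0.104 and 0.903 FPKM, a log2 difference of 1.22, with a TPC1-Vector value under 0.5 FPKM. No counting error can be given for such weak genes. The share of all genes with as large a difference, and sequence shared between these genes, were not examined. Both are placed on an alternate sequence of chromosome 17, and they were the keratin-associated protein genes listed. KRTCAP2, which despite its name belongs to the oligosaccharyltransferase complex, was at 150 and 159 FPKM.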
